A study of Mus musculus with 3 samples.

Results

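Contacts that captured promoters of mouse erythroid cells made with fragments 1 to 10 Mb away on the same chromosome are described here. A contact is a pair of a captured promoter fragment, called a viewpoint, and another DpnII restriction fragment with at least 1 ligation event in at least 1 library. Members were all contacts not on chromosome X whose fragment midpoint lay 1 to 10 Mb from the midpoint of the viewpoint, with viewpoints that share a name left out. This rule uses position alone and took 11927839 of the 47812899 contacts listed. They belonged to 6975 viewpoints, of which 6517 had at least 1000 ligation events on their own chromosome (cis events) over all libraries and entered the comparisons. Contacts were measured by nuclear-titrated Capture-C, in which nuclei are digested with DpnII, neighbouring fragments are ligated and biotinylated probes enrich the products of chosen promoters. The 3 libraries form 1 group with no control group. All came from ter119+ CD71+ erythroid cells of F1 hybrid (C57BL/6-cross-CBA/J) mice made anemic with phenylhydrazine, given as 3 doses of 40 mg per g body weight at intervals of 12 h, with spleens taken on day 5, and neither the age nor the number of the mice is stated in the labels. Most viewpoints were chosen as active promoters from open chromatin and histone marks of ter119+ cells, and a small set of inactive promoters was added by design. Library a, library b and library c are the 3 unnamed columns of the table in their order. The data hold no RNA measure by which the erythroid identity of the cells could be checked.

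Contact frequency along a chromosome falls with distance, because loci on 1 polymer meet less often the longer the stretch between them. At the scale of megabases, chromatin also sorts by kind, so that gene-rich active segments meet other active segments and gene-poor inactive segments meet each other, a pattern known as the A and B compartments. Contacts from 1 to 10 Mb lie beyond the reach of most known enhancers.

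Single contacts in this range were sparse, with 74.2% supported by 1 event in the sum of the libraries and 2.02% seen in all 3 libraries. The few with many events were therefore examined for sequence shared with their viewpoint. Below, the fragments with the most events from the Prdx6b, Tm9sf4 and Asnsd1 viewpoints are shown in the plus strand of mm9, and capitals mark the longest stretch identical to the viewpoint on either strand. They are shown because each carried at least 158 events where a fragment in this range typically had 1.
Prdx6b contact at chr2:70619994-70620064: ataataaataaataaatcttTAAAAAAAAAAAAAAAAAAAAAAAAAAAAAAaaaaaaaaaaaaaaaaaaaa
Tm9sf4 contact at chr2:160293888-160293929: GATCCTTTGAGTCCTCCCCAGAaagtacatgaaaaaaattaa
Asnsd1 contact at chr1:46109894-46109920: gatcTGTTGCTCAGTCACACACAGATC

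The fragment seen by Prdx6b (a peroxiredoxin gene, here a designed inactive promoter) overlaps Tlk1, a protein kinase gene, and lies 9.51 Mb from the viewpoint. It had 51 events in library a, 78 in b and 83 in c, and the shared stretch of 31 bases is a thymine followed by a run of adenines. The fragment seen by Tm9sf4, a membrane protein gene, had 13, 76 and 73 events, far fewer in library a than in the others, and shares 22 bases that start at its DpnII site. The fragment seen by Asnsd1 is 23 bases long, had 29, 55 and 74 events, and is identical to the viewpoint over 23 bases that include the next DpnII site. With 1 fragment taken per viewpoint, the next fragments by events were seen by Tagap1 (25, 47 and 51 events) and Fgfr1op (22, 31 and 24 events) on chromosome 17. Each lies 1 fragment from the other gene's viewpoint, and these viewpoints share 1159 of 1395 words of 30 identical bases in Fgfr1op. The part of shared sequence in these counts was not tested. Over the whole range, 46 of the 9195 contacts with at least 10 events shared a word of 30 bases with their viewpoint, or 0.5%. Of 20000 other contacts drawn for comparison 0.41% did. Words of this length miss shorter stretches, such as those of Tm9sf4 and Asnsd1. They also miss likeness to a neighbouring viewpoint, as for Tagap1 and Fgfr1op. These 2 shares therefore do not measure the part of shared sequence in contacts with many events.

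The range held 3407246 events in library a, 6691988 in b and 6639645 in c, together 22.6% of the cis events not on chromosome X. A viewpoint had a median of 1382 events in the range and between 9 and 55984. Counts were too sparse for single fragments and were summed in 100 kb bins of a fixed grid, of which 23849 of 24731 had at least 50 listed fragments and were kept. Between libraries, the chi-square per pair of viewpoint and bin with at least 10 events was 1.12 between b and c, 1.21 between a and b and 1.20 between a and c, where 1 is counting noise. All 3 pairs of libraries thus differed by a little more than counting noise, b and c the least. As a choice meant to be cautious, library a and the mean of b and c were used as n = 2 samples for each mean and SD, beside the value of each library. Where b and c differ from each other, this SD can be smaller than one over the 3 libraries. Nothing in the labels says that the libraries came from separate mice, and an exact sign-flip permutation test over 3 libraries cannot give a two-sided p below 0.25, so values are given with their spread and no p. Targeted fragments were listed in 0 contacts, so contacts between viewpoints themselves were not analysed here.

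Contacts from 1 to 10 Mb made up 21% ± 0.67 (SD, n = 2) of the cis signal of a viewpoint, as the mean over viewpoints. The signal is the number of events per 100 000 cis events of the same viewpoint and library. The share was 20.5% in library a, 21.5% in b and 21.4% in c, so library a had the lowest share and b and c lay close together. The first megabase of the range held 5.30% ± 0.0786, 2 to 5 Mb held 7.92% ± 0.250, and 5 to 10 Mb held 7.77% ± 0.338. A further 33.4% ± 2.16 lay beyond 10 Mb. Viewpoints differed far more than libraries did, with quartiles of 17.6% and 25.1% around a median of 21.4%. The highest share was 38.6%, at Setd3, a histidine methyltransferase gene, and the lowest was 0.322%, at Cdkn2d, a cell cycle inhibitor gene whose listed position is doubtful, as given in the closing section. By chromosome, the median share ran from 18.4% on chromosome 8 to 24.0% on chromosome 15.

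The signal fell steadily across the range and more slowly with distance. A listed fragment had a mean signal of 1.75 ± 0.0214 at 1.0 to 1.1 Mb, 1.00 ± 0.0194 at 1.9 to 2.0 Mb, 0.507 ± 0.0199 at 4.9 to 5.0 Mb and 0.370 ± 0.0148 at 9.9 to 10 Mb (SD, n = 2). On log scales the slope was -0.705 ± 0.0176 over the whole range, with -0.718 in library a, -0.687 in b and -0.698 in c. It was -0.893 ± 0.0230 up to 2.0 Mb, -0.721 ± 0.0212 from there to 4.47 Mb and -0.508 ± 0.00664 from there to 10 Mb. The curve thus flattened in every library, by more than the spread between them. Library a was lowest in each distance class, with 0.359 at 9.9 to 10 Mb against 0.383 in b and 0.377 in c.

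**Figure D1:**
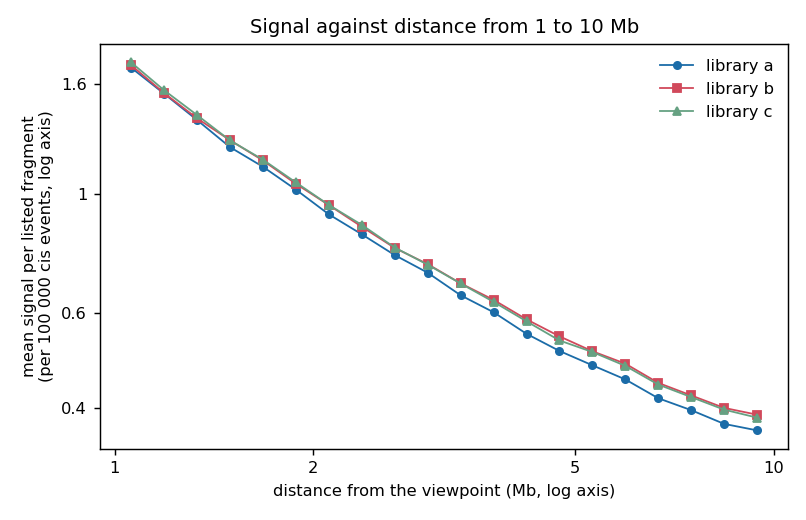
Mean signal per listed fragment (events per 100 000 cis events, log axis) against distance from the viewpoint (Mb, log axis) in each library, as points for 20 distance classes. All 3 libraries fell together, from about 1.7 at the near end to between 0.364 and 0.389 at the far end, where library a was lowest.

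Bins were compared through the ratio of observed to expected signal. The expected signal of a viewpoint in a bin followed from the distance and the listed fragments of the bin, scaled so that each viewpoint had its own total in the range. A ratio of 1 is therefore the average for that distance. Signal was higher in bins that held captured promoters, and rose with their number. The ratio was 0.735 ± 0.00893 in the 19303 bins with 0 viewpoints, 1.57 ± 0.00976 in the 2999 bins with 1, 1.84 ± 0.0218 in the 996 bins with 2, 2.02 ± 0.0487 in the 474 bins with 3 to 4, and 2.22 ± 0.0731 in the 77 bins with 5 or more (SD, n = 2). The order of these 5 classes was the same in each library. The step from 0 to 1 viewpoint was larger than all later steps together.

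Bins with at least 3 viewpoints, called dense here, stood 2.79 ± 0.106 times as high as bins with 0, called empty. The ratio was 2.87 in library a, 2.72 in b and 2.72 in c. Empty bins held 53.6% of the signal where 72.8% was expected, and dense bins held 8.52% where 4.18% was expected. The contrast was present across the range, with 2.77 ± 0.101 at 1 to 2 Mb, 2.63 ± 0.0843 at 2 to 4 Mb, 2.85 ± 0.108 at 4 to 7 Mb and 3.05 ± 0.149 at 7 to 10 Mb. It was above 1 on each of the 19 chromosomes, from 2.51 on chromosome 11 to 5.12 on chromosome 13. Histone gene clusters lie on chromosome 13, and their part in its value was not tested. Of the bins with at least 20 viewpoints in range, 29.3% were above 1 in each library. Among them were 512 of 514 dense bins, 3707 of 4094 bins with at least 1 viewpoint (90.5%) and 2188 of 16005 empty bins (13.7%). Per bin, with signal summed over the libraries, the ratio ran from 0.0814 to 7.41 with a median of 0.707. Bins agreed between libraries with a Pearson r of 0.971 between b and c and 0.952 between library a and either of them over 20099 bins, which share their viewpoints.

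Higher signal was not limited to the edges of the targeted fragments. Fragments within 2 kb of another listed viewpoint had a ratio of 2.64 ± 0.0241, which fell to 1.73 ± 0.0188 at 10 to 20 kb, 1.09 ± 0.0187 at 50 to 100 kb and 0.479 ± 0.0515 beyond 1000 kb (SD, n = 2). The fall was gradual and had no step. Without any fragment within 10 kb of a listed viewpoint, dense bins still stood 2.36 times as high as empty ones. Short fragments had less signal, with a ratio of 0.304 ± 0.0289 for the shortest class (15 to 75 bases) and 1.70 ± 0.106 for the longest (1034 bases or more). With the expected signal set by fragment length, the ratio was 2.90 ± 0.00174 within 2 kb and 0.452 ± 0.0467 beyond 1000 kb.

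**Figure D2:**
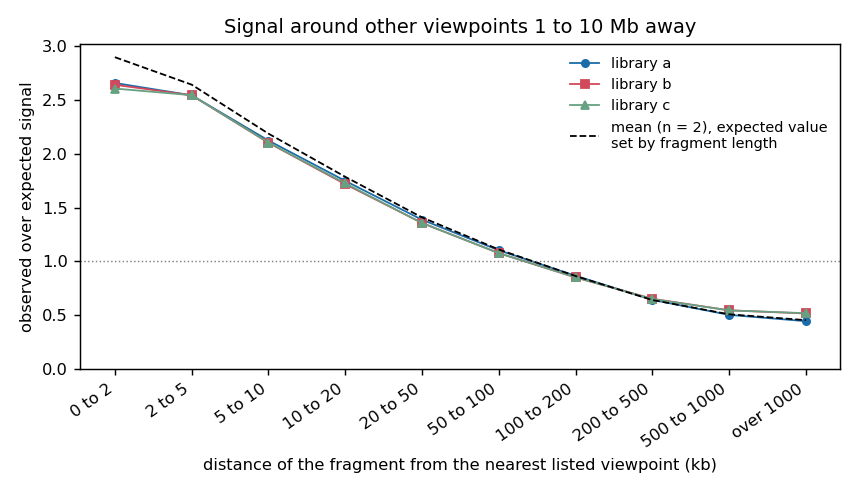
Observed over expected signal of fragments 1 to 10 Mb from the viewpoint, by their distance from the nearest other listed viewpoint (kb), as a line for each library and a dashed line for the mean (n = 2) with the expected signal set by fragment length. The ratio fell from 2.64 within 2 kb to below 1 between 100 and 200 kb, and library a lay lowest at the far end.

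Empty bins were not alike. Those next to a bin with a viewpoint stood at 1.06 ± 0.0156, those 2 bins away at 0.775 ± 0.00192, those 3 to 5 away at 0.615 ± 0.00878 and those 6 to 10 away at 0.515 ± 0.0325. Farther out the fall ended, with 0.469 ± 0.0503 at 11 to 20 bins and 0.506 ± 0.0619 at 21 to 66 bins. The ratio at 21 to 66 bins was slightly higher in each library. It went from 0.433 to 0.462 in library a, from 0.503 to 0.549 in b and from 0.507 to 0.550 in c, with library a lowest in both classes. The presence of a gene went with the ratio too. Empty bins with the start of a protein-coding gene stood at 0.848 ± 0.00307 (5882 bins), those inside a gene without a start at 0.800 ± 0.00480 (5049 bins) and those with no protein-coding gene at 0.553 ± 0.0270 (8372 bins). Bins with a viewpoint stood at 1.71 ± 0.0197, so on average an annotated gene start without a captured promoter went with little more signal than the inside of a gene. More starts did not go with more signal in empty bins. The ratio was 0.858 ± 0.00358 with 1 start, 0.889 ± 0.00835 with 2, 0.781 ± 0.000494 with 3 to 4 (597 bins) and 0.709 ± 0.0217 with 5 to 15 (195 bins). With 3 or more starts it thus lay below that inside a gene.

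The number of viewpoints, GC content and gene density move together along chromosomes. Over 20099 bins, Spearman's rho with the ratio was 0.610 for viewpoints in the bin, 0.634 for viewpoints in the bin and 5 bins on each side, 0.542 for GC content, 0.508 for listed fragments and 0.499 for gene starts. These are descriptions across bins of the same libraries, and neighbouring bins share viewpoints. Within classes of GC content the contrast of dense over empty bins was 4.21 ± 0.106 (38.2 to 40.3% GC, 11 dense bins), 3.41 ± 0.121 (40.3 to 42.6%, 49 dense bins), 2.74 ± 0.00310 (42.6 to 45.4%, 105 dense bins) and 2.08 ± 0.0136 (45.4 to 56.5%, 386 dense bins). The lowest GC class had 0 dense bins. The contrast was thus lower in GC-rich classes and above 2 in each class that held dense bins.

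Comparing the 2 sides of the same viewpoint leaves out differences between viewpoints. Of the 5057 viewpoints with complete and unequal sides, 76.2% ± 0.650 (SD, n = 2) had the higher ratio on the side with more listed viewpoints, with 76.6% in library a, 75.6% in b and 75.9% in c. In the sum of the libraries these were 3898 viewpoints, or 77.1%, with an exact binomial (Clopper-Pearson) 95% interval of 75.9 to 78.2%. This interval treats viewpoints as independent, but neighbouring viewpoints share their sides, so it understates the uncertainty. The share grew with the difference between the sides, from 60.6% for 1 to 10 more viewpoints to 82.1% for 11 to 30, 89.2% for 31 to 60 and 93.9% for 61 to 117. The median ratio between the sides grew with it, from 1.06 to 1.95.

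The designed inactive promoters gave another picture. They include promoters of vomeronasal receptor and keratin-associated protein genes, and 176 of the 187 that matched a listed viewpoint entered here, beside 6341 other viewpoints. From inactive viewpoints, dense bins stood 1.01 ± 0.0397 times as high as empty ones, with 1.04 in library a, 0.987 in b and 0.978 in c. From the others the contrast was 2.86 ± 0.109, with 2.94, 2.79 and 2.79. In each library the contrast was thus lower from inactive viewpoints, while single viewpoints of the 2 classes did overlap, as given below. Bin by bin, inactive viewpoints had ratios of 0.983 at empty bins, 1.06 at bins with 1 viewpoint, 1.06 with 2, 1.01 with 3 to 4 and 0.883 with 5 or more, so no rise with the number of viewpoints was seen.

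**Figure D3:**
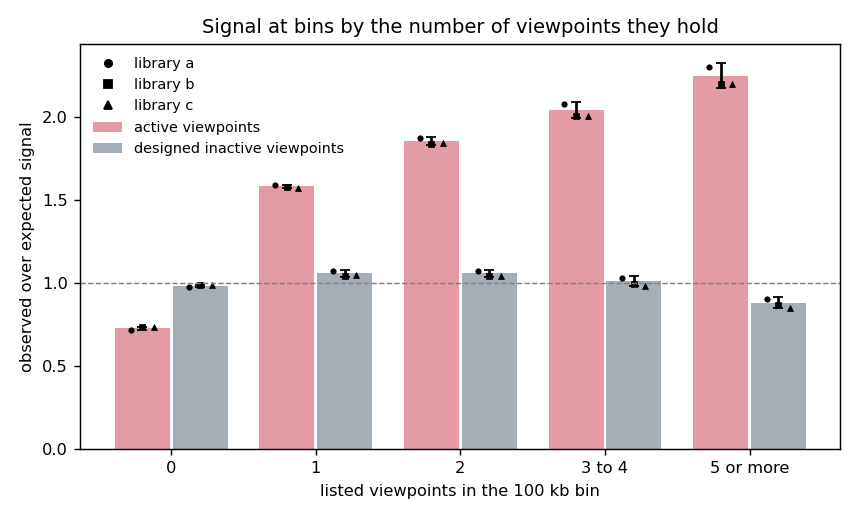
Observed over expected signal (linear axis from 0, dashed line at 1) in 100 kb bins by the number of listed viewpoints they hold, seen from viewpoints chosen as active and from designed inactive ones. Bars are means and error bars SDs (n = 2), and points are libraries. Active viewpoints went from 0.726 at empty bins to 2.25 at bins with 5 or more, and designed inactive viewpoints stayed between 0.883 and 1.06.

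Inactive viewpoints differed widely among themselves. Of all 6517 viewpoints, 96.3% had more signal at bins with viewpoints than at empty bins in each library and 1.95% had less in each. Among inactive viewpoints 84 of 176 had more (47.7%) and 78 had less (44.3%), while among the others 6192 of 6341 had more (97.7%) and 49 had less. The preference is the ratio at bins with viewpoints over that at empty bins. It had a median of 1.02 and ran from 0.286 to 3.72 for inactive viewpoints. For the others the median was 2.69 and the range 0.392 to 9.17. Lowest were Zfp985 (0.286), the vomeronasal receptor gene Vmn1r42 (0.354), the keratin-associated protein gene Krtap161 (0.355), Gm5885 (0.371) and Skint4 (0.393), a gene of a family expressed in skin and thymus. Highest were Cmip (3.72), Tmod4 (3.34), a tropomodulin gene of muscle, Psmc1 (3.27), a gene of a proteasome subunit that most cells express, Prr22 (3.24) and Creb3l4 (3.10), a transcription factor gene. These 10 were chosen after their values were seen.

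**Figure D4:**
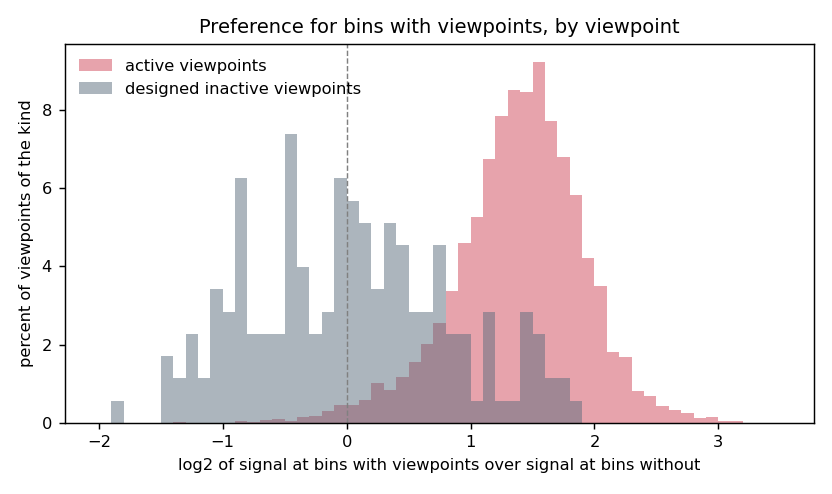
Distribution over viewpoints of the log2 preference for bins with viewpoints, as percent of the 6341 viewpoints chosen as active and of the 176 designed inactive viewpoints. The active viewpoints lie mostly to the right of 0, and the inactive ones spread over both sides of it.

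Their surroundings went with this spread. With 0 to 7 other viewpoints within 1 Mb, the dense over empty contrast of inactive viewpoints was 0.703 ± 0.0559 (84 viewpoints), with 8 to 17 it was 0.883 ± 0.0166 (51 viewpoints) and with 18 or more it was 1.52 ± 0.0638 (41 viewpoints). The same classes of the other viewpoints had 2.65 ± 0.0815, 2.77 ± 0.0914 and 3.34 ± 0.173. Spearman's rho between the number of viewpoints within 1 Mb and the preference was 0.536 over the 176 inactive viewpoints and 0.150 over the 6341 others, as a description, since neighbours share surroundings. In the sparsest class, inactive viewpoints had less signal in dense bins than in empty ones in each library, and in the most crowded class more, yet less than the other viewpoints there.

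Inactive viewpoints were captured more deeply, with a median of 70537 cis events against 6615. Among viewpoints with at least 30000 events the contrast was 1.04 ± 0.0417 for 159 inactive and 2.40 ± 0.0490 for 177 other viewpoints, of which 128 lay in a deeply captured stretch of chromosome 9. The 49 others outside that stretch had 2.36 ± 0.0708. On chromosome 9 the values were 0.934 ± 0.0497 for 13 inactive viewpoints and 2.80 ± 0.0898 for 374 others. With this minimum of events the classes thus differed somewhat less, and on chromosome 9 about as much as over all chromosomes. The minimum did not match depth. Median cis events were 74627 for the 159 inactive viewpoints, 58565 for the 177 others and 33587 for the 49 outside the stretch. The 17 inactive viewpoints under 30000 events had a contrast of 0.735 ± 0.0258. GC content of the viewpoint's own bin was close, with medians of 44.7% and 45.3%.

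Seen as targets, inactive promoters also stood apart. The 114 bins whose listed viewpoints were all inactive had a ratio of 0.845 ± 0.0141 from the other viewpoints, about that of empty bins with a gene start, while the 4372 bins with only other viewpoints had 1.75 ± 0.0194. From inactive viewpoints the same bins had 0.95 ± 0.028 and 1.05 ± 0.0225. At empty bins 11 or more bins from any viewpoint, inactive viewpoints had 0.821 ± 0.0676 and the others 0.463 ± 0.0522. Bins whose captured promoters were all inactive thus stood below 1 on average. The 60 bins that held both kinds stood at 1.71 ± 0.0404 from the other viewpoints and at 0.976 ± 0.0617 from inactive ones.

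For all viewpoints, surroundings went with the size of the contrast and of the share. Viewpoints with 0 to 7 others within 1 Mb (2369) had a contrast of 2.55 ± 0.0800, those with 8 to 17 (2148) had 2.70 ± 0.0879 and those with 18 to 56 (2000) had 3.28 ± 0.169. The contrast of the most crowded over that of the sparsest class was 1.28 ± 0.0259, with 1.30 in library a, 1.26 in b and 1.27 in c. From the sparsest to the most crowded class, empty bins went from 0.795 ± 0.00725 to 0.652 ± 0.0136. Most dense bins hold 3 to 4 viewpoints, and these changed little, from 2.03 ± 0.0422 to 2.07 ± 0.0565. Bins with 5 or more viewpoints went from 2.03 ± 0.0638 to 2.43 ± 0.104, with 1.99 ± 0.0313 in the middle class. Bins with 1 viewpoint fell from 1.69 ± 0.0163 to 1.47 ± 0.00484, and those with 2 from 1.98 ± 0.0375 to 1.79 ± 0.0182. The share of cis signal ran opposite to the contrast. It was 21.9% ± 0.616 in the sparsest class, 21.1% ± 0.642 in the middle and 19.8% ± 0.750 in the most crowded, an order that held in each library. Relative to what distance, listed fragments and depth predict, totals were 1.09 ± 0.00404, 0.992 ± 0.00136 and 0.915 ± 0.00587.

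Viewpoints with extreme totals in the range were named among the 4147 with at least 5000 cis events. The 5 highest totals over expectation lay within 1 Mb of the first or last DpnII fragment in the sequence of their chromosome, where only 1 side of the range could be measured. They were Zbtb21, a zinc finger gene, at 3.26, Tmx3 at 3.07, Rfc3, a subunit of the replication clamp loader, at 3.06, the fragment named A630020A06_AW549877 at 2.92 and Fbxo4, an F-box gene, at 2.82. Fbxo4 and A630020A06_AW549877 lie close together, with starts at chr15:3929056 and chr15:3944663, and share their surroundings. The shares of cis events of these 5 viewpoints lay above the upper quartile of all viewpoints, from 26.4% for Tmx3 to 36.2% for Rfc3. Over all viewpoints, the median total was 1.24 for the 1356 without 2 complete sides and 0.957 for the 5161 with them.

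The 5 lowest were Lmo2_b (0.325), Cenpu (0.344), Ip6k1 (0.345), Lmo2_a (0.357) and Kri1 (0.364). Lmo2 encodes a bridging protein of erythroid transcription factor complexes, and its captured fragments Lmo2_b (chr2:103809278-103810265) and Lmo2_a (chr2:103797392-103798432) share their surroundings. Lmo2_b had 5.90% of its cis signal from 1 to 10 Mb in library a, 7.89% in b and 7.90% in c. Cenpu, a centromere protein gene, had 4.72%, 6.98% and 6.82%. Library a was the lowest for all 5. These viewpoints kept most of their events near them, with 59.1% within 1 Mb for Lmo2_b, 60.1% for Cenpu, 75% for Ip6k1, an inositol phosphate kinase gene, 53.5% for Lmo2_a and 62.1% for Kri1.

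Erythroid promoters had slightly lower shares in this range. The list of 40 such genes had 33 with a viewpoint that entered the comparisons, with 42 viewpoints in all. Their median share was 19.8% with a range of 8.16 to 32.5%, beside 21.4% for all viewpoints. Captured fragments of the same gene, such as the 5 of Nfe2, share their surroundings. Of the 42, 27 had a total below expectation in each library (64.3%), beside 44.1% of all viewpoints. Erythroid viewpoints had a median of 4572 cis events and 15.5 other viewpoints within 1 Mb, beside 6813 and 11 for all. The part of depth and surroundings in their lower shares was not tested. The alpha-globin promoters were lowest of the list, Hba-1 with 6.74% in library a, 8.32% in b and 8.83% in c and Hba-2 with 6.34%, 8.86% and 9.09%. The beta-globin promoter Hbb-b1 lay near the median, with 19.9%, 20.6% and 20.2%. Alad, a heme synthesis enzyme gene, had 10.5% at Alad_a and 8.76% at Alad_b, Tfrc, the transferrin receptor gene, had 10.7%, and Klf1, an erythroid transcription factor gene, had 11.5%. Gfi1b, a repressor needed for red cell formation, was highest at 32.5%. Erythroid promoters were thus spread over most of the range of all promoters.

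Housekeeping genes had a median share of 18.7% (14 viewpoints of 14 genes, 12.3 to 24.6%), ribosomal protein genes 21.3% (76 viewpoints, 7.41 to 34.1%) and inactive promoters 24.5% (176 viewpoints, 11.4 to 37.1%). Of viewpoints with at least 30000 events, the 159 inactive had a median share of 24.5% and the 177 others 23.9%. The 49 of these others outside the deep stretch of chromosome 9 had 22.3%. The part of depth in the higher share of inactive promoters was not tested. The contrast of dense over empty bins was 3.81 ± 0.197 for erythroid, 4.36 ± 0.108 for housekeeping and 2.96 ± 0.105 for ribosomal protein viewpoints, beside 2.79 for all. Erythroid and housekeeping viewpoints also had more neighbours, with a median of 15.5 and 16.5 viewpoints within 1 Mb beside 11 for all. The part of neighbours in these contrasts and shares was not tested.

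**Figure D5:**
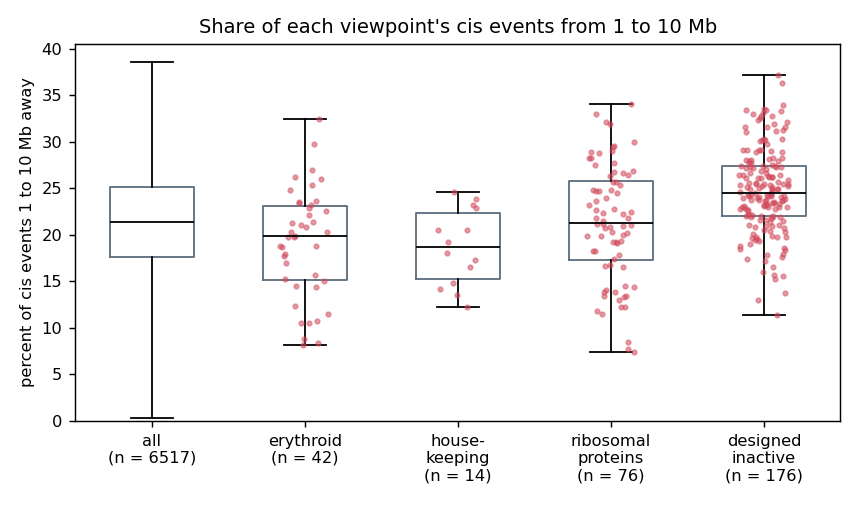
Percent of cis events from 1 to 10 Mb for all 6517 viewpoints and for 4 lists, as boxes from the lower to the upper quartile with the median, whiskers to the lowest and highest value, and points for the viewpoints of each list. Erythroid and housekeeping medians (19.8% and 18.7%) lie below that of all viewpoints (21.4%), and the designed inactive median (24.5%) lies above. The lists were not matched for depth.

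Bins of the same list were somewhat higher than other bins with viewpoints. From erythroid viewpoints, bins with an erythroid viewpoint stood at 2.80 ± 0.114 and other bins with viewpoints at 1.83 ± 0.0367, a quotient of 1.53 ± 0.0928, which rests on 13 pairs of a viewpoint and a bin with 379 events. Seen from the other active viewpoints the same erythroid bins were also higher, at 2.16 ± 0.0207 against 1.72 ± 0.0199, a quotient of 1.25 ± 0.0264. For ribosomal protein genes these quotients were 1.22 ± 0.0751 and 1.12 ± 0.0208, which differ by little more than 1 SD of the first. For housekeeping genes there were 4 pairs, and the value ran from 1.34 in library a to 3.42 in c, too wide to compare.

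Among bins with at least 20 viewpoints in range, the highest ratios belonged to the replication-dependent histone gene clusters, whose genes supply the core and linker histones. The bin chr13:21800001-21900000 (9 histone viewpoints) stood at 8.11 in library a, 7.11 in b and 7.04 in c, and chr13:23800001-23900000 (8 histone viewpoints) at 5.56, 4.77 and 4.96. The 14 histone viewpoints of the proximal cluster saw the distal cluster at 8.68 ± 0.913. The 5 other viewpoints within 500 kb saw it at 2.99 ± 0.0433, with single viewpoints from 1.95 to 4.70. Without shared words and the 10 kb around viewpoints these were 5.21 ± 0.268 and 2.64 ± 0.268. In the other direction, from 20 histone and 3 other viewpoints, they were 9.04 ± 1.32 and 3.82 ± 0.413. Without shared words and the 10 kb around viewpoints they were 4.36 ± 0.469 and 2.95 ± 0.729. Library c had 3.93 and 3.76, so its filtered values lay close together. These SDs are over libraries and do not cover differences between so few other viewpoints. Shared words were 30 identical bases, so shorter or less exact likeness between fragments was not filtered out.

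Bins under 2 Mb from a bin already named were skipped, and the next highest of the remaining bins held no viewpoint. It was chr3:144300001-144400000, over Sh3glb1, a gene of membrane curvature and autophagy, and Clca1, at 5.78, 4.66 and 4.61. The bin chr2:172800001-172900000 holds the promoters of Rae1, an mRNA export factor gene, and Rbm38, an RNA-binding protein gene. It stood at 5.23, 4.90 and 4.83. The bin chr17:7100001-7200000, with Rsph3b and Tagap1, stood at 4.80, 5.13 and 4.69, beside the sequence that Tagap1 shares with Fgfr1op. By the same rule, the 5 lowest bins lay on chromosomes 2, 4 and 7, with means over libraries (n = 2) between 0.0671 and 0.134. They held 0 viewpoints, and many of their fragments were not listed, with 53 of 268 listed in chr2:176500001-176600000 and 176 of 299 in chr4:112000001-112100000 over Skint9. No viewpoint was above expectation there in each library, but the bins were chosen by the signal of these same viewpoints.

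Pairs of a viewpoint and a bin with at least 5 expected events were ranked, with 1 pair kept per bin. The highest was Asnsd1 with chr1:46100001-46200000, at 287 events where 5.38 were expected. Of these events, 158 fell in the fragment of 23 bases shown above. The following 3 pairs were histone viewpoints with the other histone cluster, Hist1h2bb at 17.6 times expectation in the sum, Hist1h4n at 13.5 and Hist1h4m at 13.4. Without shared words and fragments within 10 kb of a viewpoint, Hist1h4n stood at 7.67 and Hist1h4m at 5.42. Hist1h2bb had 6 events left where 0.286 were expected. Fragments sharing a word numbered 0 for Hist1h4n and Hist1h2bb and 1, with 6 events, for Hist1h4m. Nearly all events left out thus lay within 10 kb of a viewpoint. The fifth was Ube2c, a ubiquitin-conjugating enzyme gene of mitosis, with the Rae1 and Rbm38 bin 8.25 Mb away. It had 22, 39 and 39 events, 13, 12.8 and 13.1 times expectation in libraries a, b and c. These events were spread over 63 fragments with at most 4 each, and without fragments within 10 kb of a viewpoint the pair stood at 12.9, so it did not rest on 1 fragment.

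Where 2 bins each held viewpoints, their contact was measured from both ends. Over 2752 such pairs of bins with at least 50 expected events from each end, the ratio from one end correlated with that from the other at a Pearson r of 0.775 and a Spearman's rho of 0.721, across pairs that share bins and libraries. With at least 10 expected events these were 0.640 and 0.595 over 32087 pairs. Of pairs above 2 from one end, 55.2% were above 2 from the other, beside 13.6% of pairs not above 2.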

How the data were processed

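The deposited signal values are reporters (unique ligation events) per 100000 cis reporters of the same viewpoint and library, as scaled by the authors with CaptureCompare after CCseqBasic or CCseqBasicM had removed PCR duplicates. Reads were aligned to mm9, and the submitters' processing notes name Trim Galore and Bowtie, with versions not given in the sources used here. The 3 unnamed columns were treated as replicates of the ter119+ erythroid group, each with its own scaling. A second deposited file gave viewpoint positions.

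From these, the lowest non-zero value per viewpoint and library was taken as the worth of 1 event, and 100.0% of values came out whole in each library within a tolerance of 0.01 reads. Cis depth was 18230099, 34428035 and 34233560 events. The genome was digested in silico with DpnII. Bins of 100 kb needed 50 listed fragments, where a fragment is listed if any viewpoint contacted it. Expected signal followed the mean per listed fragment in distance classes of 100 kb. Events of PCR-amplified libraries are not fully independent. The interval given for the comparison of sides counts viewpoints as independent and covers neither this nor their shared sides. Inactive promoters were matched by position to the study's list of inactive capture oligonucleotides, and 187 of 189 matched. Genes are those of the GENCODE annotation of NCBIM37 (mm9), from which sequences were read.

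Named items followed a fixed rule: the 5 viewpoints with the highest and lowest total, the 5 bins with the highest and lowest ratio that lay 2 Mb apart, the 5 pairs of viewpoint and bin with the highest ratio (1 per bin) and the 5 fragments with the most events (1 per viewpoint). Members, lists and rules were chosen with earlier results of these data known. Alternatives covered events as the measure, depth minimums, a cap of 3 events, the base of the expected signal, bin size, the dense threshold, GC classes, the radius of the surroundings, fragments near viewpoints, the deep chromosome 9 stretch, and leaving out each library. The programs were tested on simulated data. Python 3.11.15 with numpy 2.4.6, pandas 2.3.3, scipy 1.17.1 and numba 0.67.0 was used.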

Additional observations from a re-analysis of the deposited data

How the results depend on the processing

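Under every alternative run, the contrasts over all viewpoints stayed above 1 and the slope stayed below 0. The contrast of dense over empty bins (reported 2.79) was 2.33 with events in place of signal, 2.36 without fragments within 10 kb of a viewpoint, 2.61 with dense from 2 viewpoints, 2.93 with 50 kb bins, 3.02 with dense from 5, 3.11 as the mean over GC classes, 3.20 with all DpnII fragments as base and 3.21 with bin length as base. The contrast of crowded over sparse surroundings (reported 1.28) was 1.13 within 2 Mb, 1.18 with dense from 2, 1.24 with bin length, 1.25 with all fragments, 1.26 without designed inactive viewpoints (added after the data were seen), 1.34 with at least 5000 events, 1.41 with events, 1.42 over GC classes, 1.43 within 500 kb, 1.46 with dense from 5 and 1.63 with 500 kb bins. For designed inactive viewpoints (reported 1.01), alternatives added after the data were seen gave 0.878 over GC classes, 0.921 with 50 kb bins, 1.07 without 10 kb around viewpoints, 1.14 with all fragments and 1.15 with bin length, so its side of 1 depends on the setting. The share on the side with more viewpoints (reported 76.2%) was 73.9% without 10 kb around viewpoints, 76.8% from 2 to 10 Mb, 77.8% with all fragments and 78.7% with bin length. The slope (reported -0.705) was -0.683 with events, -0.727 with all fragments and -0.730 with bin length. The share of cis signal (reported 21%) was 22.2% with at most 3 events per fragment and 22.3% with events. All other alternatives, leaving out each library included, moved these values by less than 1 SD. The cause of these shifts was not tested. No paired analysis was possible because there is 1 group. Depth limits single contacts: a viewpoint and bin had a median of 5 events.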

Other observations

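Some bins without any listed viewpoint stood as high as dense bins. The highest, chosen after their values were seen, were chr3:144300001-144400000 (5.21 ± 0.807, SD, n = 2), chr7:80700001-80800000 (4.25 ± 0.0410), chr17:63600001-63700000 over Fbxl17, an F-box gene (4.12 ± 0.0624), chr8:20000001-20100000 (4.11 ± 0.493) and chr16:49700001-49800000 over Ift57, a gene of cilium assembly (3.70 ± 0.517). The bins on chromosomes 3, 7 and 16 lie next to a bin with a viewpoint, that on chromosome 17 lies 2 bins away, and that on chromosome 8 lies 11 bins away and had 76 of 113 fragments listed. Altogether 212 of 16005 empty bins were above 2 in each library, beside 240 of 514 dense bins. The Fubp1_Dnajb4 viewpoint saw the chromosome 3 bin with 24, 47 and 44 events, 13 times expectation in the sum, over 71 fragments.

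Among viewpoints with 2 complete sides, and chosen after their values were seen, the highest totals over expectation were those of Rbm33 (1.70), Tmem106b (1.69), Setd3 (1.69), 1700016L04Rik_Vta1 (1.68) and Nbas (1.67), each with 0 to 3 other viewpoints within 1 Mb. Further pairs that shared no word of 30 bases, also chosen after their values were seen, joined Mtfr1_a with the bin of Car2, the carbonic anhydrase of red cells (8, 36 and 21 events, 10.3 times expectation in the sum) and Naa15 with the bin of Mbnl1, a splicing regulator gene (6, 20 and 25 events, 9.80 times). Without the 10 kb around viewpoints these stood at 5.36 for Mtfr1_a, on 28 of its 65 events, and at 7.84 for Naa15. Library a had the fewest events in both and the ratio varied between libraries, from 6.27 to 14.3 for Mtfr1_a.

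Profiles of neighbouring viewpoints over the bins they share were alike. The median Pearson r was 0.665 for 1423 pairs of active viewpoints under 1 Mb apart and 0.653 for 3593 pairs 1 to 5 Mb apart. Between an active and an inactive viewpoint it was 0.601 (1134 pairs) and 0.404 (2961 pairs, with quartiles of -0.169 and 0.669). Between inactive viewpoints it was 0.813 (22 pairs) and 0.354 (83 pairs, with quartiles of -0.299 and 0.745). These are descriptions across viewpoints that share bins and libraries. The pairs of active viewpoints are a subset of all such pairs. Inactive viewpoints were captured more deeply, and the part of depth in these values was not tested.

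The position listed for Cdkn2d did not go with its events. It is listed at 123.8 Mb of chromosome 9, where 5.36% of its 2798 cis events lay within 1 Mb, while the bin with the most events starts at 21 Mb and the annotated gene at 21.1 Mb of the same chromosome. It was kept by the rule and held 9 events in the range.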
